A study of Mus musculus with 24 samples.

Results

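Interferon-stimulated genes were followed by bulk RNA sequencing in 24 C57BL/6N mice, using tissue of the distal small intestine, after depletion of ribosomal RNA. The genes were 37 members listed by symbol, with 3 or more counts in at least 6 libraries asked of each. All 37 of the 37 listed were found among the 55536 genes of the count table and met that rule. The rule on counts uses no difference between groups, but the members were listed with earlier results of these data known. Shares of members set beside shares of all genes are therefore descriptions. The mice fell into 4 groups of 6, each with 3 males and 3 females and 1 library per animal. CD mice ate a control diet with 10 kcal% fat, CDmetf mice ate the same diet and received metformin, HFD mice ate a high-fat diet with 60 kcal% fat, and HFDmetf mice ate the high-fat diet and received metformin. The animals entered the study at 4 to 5 weeks of age, ate their diet for 20 weeks, and then went on for 10 weeks with or without metformin in the drinking water at 50 mg/kg/day. Animals were kept 3 to a cage, with cages arranged in 3 blocks. Libraries are named here by group, sex letter and replicate number, so that CD M3 is the CD male with number 3.

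Interferons are secreted proteins that warn cells of a virus. Type I and type III interferons bind receptors that act through the kinases JAK1 and TYK2, and the signal leads to a factor that holds STAT2 and IRF9 and binds the interferon-stimulated response element (ISRE) before the target genes. Type II interferon, made mainly by T cells and natural killer cells, leads to binding at another element, the gamma-activated sequence (GAS). In the gut, the epithelium responds strongly to type III interferon, and the resident microbes keep some of these genes at a low steady level. The members comprised antiviral effectors (Isg15, the Ifit and Oas families, Mx1, Mx2, Rsad2, Bst2), sensors of viral nucleic acid (Ifih1, Ddx58, Dhx58, Zbp1), regulators of the response (Irf7, Irf9, Stat2, Usp18), GTPases that act at the membranes around intracellular microbes (Gbp2, Gbp3, Gbp7, Igtp, Irgm1, Ifi47) and 8 other induced genes.

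The sequences around the start sites were searched for the letters of these 2 elements. RefSeq gave a promoter window, from 250 bases before to 50 bases after the start in GRCm38.p6, for 28 of the 37 members. An ISRE was searched as TTTCNNTTTC, which reads GAAANNGAAA on the other strand, and GAS as TTCNNNGAA, which reads the same on both strands. At least 1 ISRE match lay in the window of 18 of the 28 members, against 3.99% of the 27025 genes with a window. At least 1 GAS match lay in 6 of the 28 members, against 9.55% of the 27025 genes. An ISRE match was found in 9 of 12 antiviral effectors, 5 of 6 GTPases, 2 of 2 sensors, 1 of 3 regulators and 1 of 5 of the other members. Both sensor matches began after the start, by 32 bases in Ifih1 and 2 bases in Ddx58. The match is a description of letters, not of a bound site. The 150 bases that end just before the start are printed below for 3 antiviral effectors and for the pair of GTPases with the smallest p on metformin under the control diet, with the ISRE matches in capitals.
Isg15, chr4:156200819-156200968, minus strand: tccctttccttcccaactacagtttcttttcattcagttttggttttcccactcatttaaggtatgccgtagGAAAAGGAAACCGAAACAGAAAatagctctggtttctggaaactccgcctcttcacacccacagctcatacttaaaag
Ifit1, chr19:34640739-34640888, plus strand: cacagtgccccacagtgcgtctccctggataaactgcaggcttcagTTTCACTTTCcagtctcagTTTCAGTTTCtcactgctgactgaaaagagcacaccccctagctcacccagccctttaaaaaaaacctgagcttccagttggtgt
Oas1a, chr5:120907526-120907675, minus strand: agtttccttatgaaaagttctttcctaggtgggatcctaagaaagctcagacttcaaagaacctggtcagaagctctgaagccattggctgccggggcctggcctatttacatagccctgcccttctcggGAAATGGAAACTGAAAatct
Irgm1, chr11:48871421-48871570, minus strand: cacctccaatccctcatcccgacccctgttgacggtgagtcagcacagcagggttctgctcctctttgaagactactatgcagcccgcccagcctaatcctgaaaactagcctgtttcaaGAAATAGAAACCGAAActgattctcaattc
Igtp, chr11:58199406-58199555, plus strand: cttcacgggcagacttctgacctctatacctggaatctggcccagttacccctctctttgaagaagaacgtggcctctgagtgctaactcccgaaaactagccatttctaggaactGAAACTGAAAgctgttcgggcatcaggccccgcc
Overlapping matches made a single run in Isg15, which held 3, and in Oas1a and Irgm1, which held 2 each. The pair of matches in Ifit1 stood apart, beginning at -104 and -85 from the start. Igtp held 1 ISRE match. Both Igtp and Oas1a also held a GAS match in the window. Such a match was found in 3 of 12 antiviral effectors and 2 of 6 GTPases. The window of Irf7 held neither element.

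Depth and library quality bear on all that follows. Reads assigned to genes ranged from 1829690 to 40606442 per library, and the 37 members together made up between 83.8 and 1292 counts per 1000000 reads on genes (CPM) before scaling. CD M3 gave 85.4% of its counts to its 10 most abundant genes and HFDmetf F2 gave 36.6%, against 9.22% to 18.97% in the other libraries. The sex-linked transcripts went against the labelled sex in HFD M2 and HFD F2, which are therefore named as labelled. CD M3, HFD M2 and HFD F2 are the 3 doubted libraries in what follows. Of the markers of the ileum, the bile acid carrier gene Fabp6 ranged from 0.841 to 2618 CPM (here and below scaled by the trimmed mean of M-values), so the libraries differed widely in how much of that signature they held. HFD M3 had the lowest summed level of the 4 ileum markers, 161.5 CPM, and is not among the doubted libraries. Epithelial markers were present in every library, with Vil1 at 671 CPM or more.

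The levels of the members were low to moderate. Per kilobase of exon, the median over 24 libraries was highest for Irf7, at 18.01 CPM per kilobase, followed by Oasl1 at 14.9, Ifi35 at 13.3, Parp14 at 13.3 and Ifih1 at 11.8. It was lowest for Mx2, at 0.251 CPM per kilobase. Isg15, Ifi44, Oas2 and Mx2 did not pass the filter on low counts, so 33 of the 37 members were tested. A level of 3 counts, the smallest read here as detected, stood between 0.0722 and 1.65 CPM depending on the library. Some of the lowest levels given below lay at or under it. Among them, the HFDmetf lows of Mx1 and Usp18 were in HFDmetf M2, where 3 counts stood at 0.907 CPM. The HFDmetf lows of Ifit1 and Dhx58, in HFDmetf F2, and of Igtp, in HFDmetf M3, stood at 3 counts.

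The score of the members, which is the mean over the 37 genes of each gene's z-score of log2 CPM, was below 0 in all 6 HFDmetf libraries. There it ranged from -0.70 to -0.19 with a median of -0.53. The 6 CD libraries ranged from -0.65 to 0.55 with a median of 0.12, and the 6 HFD libraries from -0.37 to 0.32 with a median of 0.01. The low end of CD was CD M3, a doubted library, with CD F3 next at -0.29. CD M3 also held the lowest CD level of Ifit1, Ifih1, Ddx58, Irf7 and Stat2, among others. CDmetf ranged from -0.31 to 1.36 with a median of 0.08. Its upper end was made by 2 females, CDmetf F2 at 1.35 and CDmetf F3 at 1.36, while the other 4 CDmetf animals lay at or below 0.20. All groups overlapped in the score. CDmetf F2 held the highest level among all 24 libraries for 17 of the 37 members, and CDmetf F3 for 9.

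**Figure D1:**
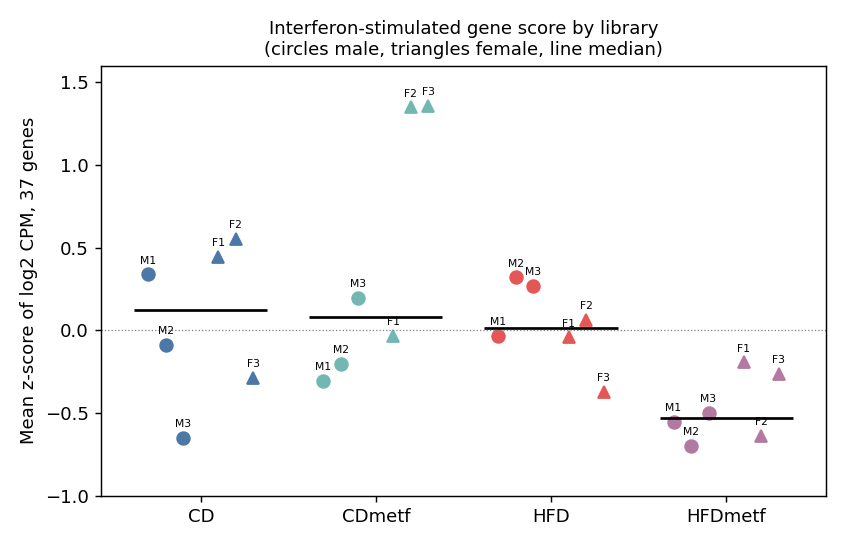
The score of the 37 interferon-stimulated genes (vertical axis, mean z-score of log2 CPM) is plotted for each library by group, with circles for males, triangles for females and a line at the group median. The 6 HFDmetf libraries lie below 0, at -0.70 to -0.19, and CDmetf F2 and CDmetf F3 stand above all others at 1.35 and 1.36.

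The diet comparison among metformin-treated mice held the widest difference. In HFDmetf against CDmetf, 32 of the 33 tested members had a lower fitted level and 1, Ifi27l2a, a higher one. The median log2 fold change of the 33 was -0.52, against 0.03 over all 13505 genes tested. No member passed the test, since the smallest adjusted p among them was 0.561 (edgeR quasi-likelihood test, Benjamini-Hochberg over all genes), and 0% of all genes passed. At an unadjusted p under 0.05, 15 of the 33 members were lower and 0 higher, against 3.85% of all genes lower and 3.7% higher. The count of 15 lay between 13 and 18 as each animal was left out, at 13 without CDmetf F2 and at 13 without CDmetf F3. It was 16 without the 3 doubted libraries, 15 when HFDmetf F2 was dropped as well, and 8 with the B-cell marker score as a covariate. In whole tissue, fewer cells of a type and less RNA per cell cannot be told apart.

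The antiviral effectors had the largest differences in that comparison. All 12 that were tested had a lower fitted level in HFDmetf, 8 of them at an unadjusted p under 0.05, with a median log2 fold change of -0.90. Ifit1, which binds foreign RNA caps and blocks their translation, lay at chr19:34640871-34650009 (GRCm38). Its level ran from 1.65 CPM through a median of 5.82 to 13.2 in HFDmetf and from 8.29 through 14.3 to 36.1 in CDmetf. It ran from 2.80 through 12.9 to 22.1 in CD and from 5.90 through 10.0 to 19.3 in HFD. CDmetf F2 and CDmetf F3 were its highest libraries and HFDmetf F2 its lowest, and the groups overlapped. The log2 fold change of Ifit1 in HFDmetf against CDmetf was -1.49 (SE 0.45, n = 6 and 6, unadjusted p = 0.00316, adjusted p = 0.561), with a lower level in 5 of 6 pairs of the same sex and number.

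Rsad2, which encodes viperin, an enzyme that makes a chain-ending nucleotide against viral polymerases, was evenly low in HFDmetf. It ran there from 3.17 through 3.88 to 5.50 CPM, and from 4.69 through 6.61 to 17.3 CPM in CDmetf. The CD libraries held 3.26 through 5.48 to 8.25 CPM and the HFD libraries 1.33 through 3.92 to 7.503 CPM. The medians of HFD and HFDmetf were alike, and CDmetf F2 alone exceeded 8.25 CPM. The log2 fold change against CDmetf was -0.97 (SE 0.31, adjusted p = 0.561), lower in 6 of 6 pairs, and -0.61 with the B-cell marker score as a covariate.

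Oas1a, one of the synthetases that double-stranded RNA switches on, reached 2.75 through 4.75 to 5.44 CPM in HFDmetf and 4.89 through 7.97 to 17.9 CPM in CDmetf. In CD it stood at 6.06 through 6.70 to 13.5 CPM and in HFD at 2.36 through 7.14 to 15.95 CPM. Its log2 fold change in HFDmetf against CDmetf was -0.83 (SE 0.29, adjusted p = 0.583), lower in 6 of 6 pairs, with overlap between the groups. Of its 100-base windows, 40.9% also occur in Oas1g, so its count is uncertain. Oas3, Oasl1 and Oasl2 of the same family were lower too, with log2 fold changes of -1.41, -0.84 and -1.09 against CDmetf.

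Ifit3 and Ifit3b share sequence, with 31.7% and 27.4% of their windows found in the other, so their counts are also uncertain. Ifit3b had the smallest p of all members, with a log2 fold change of -1.09 (SE 0.32, unadjusted p = 0.00232, adjusted p = 0.561). Ifit3 held 2.20 through 3.86 to 5.44 CPM in HFDmetf and 1.96 through 5.74 to 7.20 CPM in CDmetf. It held 3.26 through 5.195 to 5.91 CPM in CD and 2.26 through 3.65 to 6.53 CPM in HFD. The 4 groups overlapped for Ifit3.

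Ifit1bl1, a relative of Ifit1, ran from 8.76 through 10.8 to 22.75 CPM in HFDmetf, from 10.9 through 22.4 to 62.2 in CDmetf, from 9.55 through 18.1 to 25.4 in CD and from 10.9 through 17.8 to 25.7 in HFD. CDmetf F3 held its highest value, and the groups overlapped. Its log2 fold change in HFDmetf against CDmetf was -1.07 (SE 0.35, unadjusted p = 0.00637, adjusted p = 0.561), lower in 5 of 6 pairs.

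Of the remaining antiviral effectors, several had few reads. Isg15, a ubiquitin-like protein that is joined to viral and cellular proteins, reached 371 reads in all libraries together. It ran from 0.479 through 0.764 to 1.67 CPM in HFDmetf, from 0.586 through 1.30 to 6.56 in CDmetf, from 0.233 through 1.94 to 4.95 in CD and from 0.342 through 1.41 to 3.99 in HFD. Fitted without a filter on low counts, its log2 fold change in HFDmetf against CDmetf was -1.11 (SE 0.49, unadjusted p = 0.0307, adjusted p = 0.860). Oas2 ran from 0.453 through 1.07 to 1.58 CPM in HFDmetf, from 0.259 through 0.504 to 4.47 in CDmetf, from 0.784 through 1.24 to 2.05 in CD and from 0.806 through 1.41 to 3.79 in HFD. The groups overlapped for both genes.

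Mx1, a GTPase that blocks influenza viruses and is defective in many laboratory strains, ran from 0.605 through 1.59 to 2.71 CPM in HFDmetf and from 1.31 through 2.95 to 4.15 in CDmetf, with a log2 fold change of -0.76 (SE 0.45, unadjusted p = 0.108, adjusted p = 0.687). In CD it ran from 0.784 through 2.54 to 10.4 CPM, with CD M1 far above the rest, and in HFD from 1.05 through 2.95 to 4.21. Bst2, the tether that holds budding virus on the cell, ran from 3.17 through 3.40 to 6.35 CPM in HFDmetf and from 2.61 through 4.46 to 8.05 in CDmetf. It ran from 2.02 through 3.47 to 5.50 CPM in CD and from 3.05 through 4.75 to 5.02 in HFD, and no group stood apart. Ifit2 had a log2 fold change of -0.23 in HFDmetf against CDmetf, among the smallest of the effectors.

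**Figure D2:**
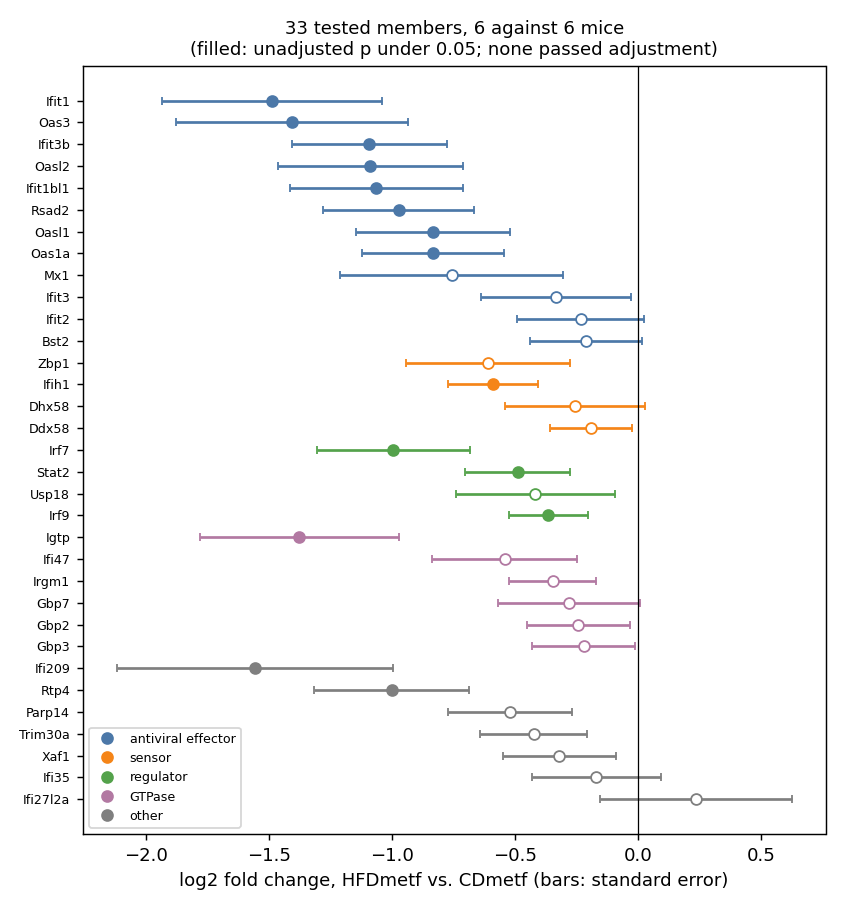
Log2 fold changes of the 33 tested members in HFDmetf against CDmetf (horizontal axis, bars for the standard error, 6 mice per group) are ordered by role, with filled points at an unadjusted p under 0.05. Points lie left of 0 for 32 of 33 members, 15 of them filled, and Ifi27l2a alone lies right of 0.

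The sensors of viral RNA and DNA had smaller differences. All 4 had a lower fitted level in HFDmetf than in CDmetf, with a median log2 fold change of -0.42. Ifih1, which encodes MDA5, the sensor of long double-stranded RNA, was the most abundant of the 4 per kilobase. It ran from 42.9 through 78.2 to 113 CPM in HFDmetf and from 82.6 through 117 to 160 in CDmetf. It ran from 63.6 through 106 to 122.8 CPM in CD and from 79.9 through 89.4 to 125 in HFD. Its log2 fold change in HFDmetf against CDmetf was -0.59 (SE 0.18, unadjusted p = 0.00401, adjusted p = 0.561), lower in 6 of 6 pairs, and the groups overlapped.

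Ddx58, which encodes RIG-I, the sensor of RNA with a free 5′ triphosphate, ran from 38.6 through 50.6 to 66.0 CPM in HFDmetf and from 36.03 through 58.6 to 84.6 in CDmetf. The CD range was 31.7 through 61.8 to 71.2 CPM and the HFD range was narrow, at 57.5 through 62.4 to 68.4. Dhx58, the helicase LGP2 that tunes both, ran from 1.65 through 3.56 to 4.03 CPM in HFDmetf, from 2.64 through 3.39 to 6.85 in CDmetf, from 2.40 through 4.03 to 4.58 in CD and from 1.68 through 3.86 to 7.53 in HFD. Zbp1, the sensor of left-handed nucleic acid that can start necroptosis, ran from 2.42 through 3.96 to 6.05 CPM in HFDmetf, from 2.07 through 6.27 to 9.79 in CDmetf, from 3.09 through 5.41 to 8.91 in CD and from 2.66 through 5.21 to 9.25 in HFD. Both overlapped among all 4 groups.

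Among the regulators, Irf7, the factor that drives the second wave of interferon production, had the largest difference. It lay at chr7:141262706-141266481. It ran from 20.3 through 33.5 to 85.2 CPM in HFDmetf, while CDmetf ran from 66.2 through 70.7 to 106 CPM. The CD libraries ran from 27.0 through 69.2 to 83.2 CPM and the HFD libraries from 30.6 through 74.4 to 83.5 CPM. In HFDmetf, 5 of the 6 libraries lay below the lowest CDmetf library, and HFDmetf M3 alone stood high. The log2 fold change against CDmetf was -0.99 (SE 0.31, unadjusted p = 0.00418, adjusted p = 0.561), and it was -0.83 with the B-cell marker score as a covariate.

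Irf9, the DNA-binding part of the factor that reads the ISRE, ran from 14.2 through 15.2 to 19.5 CPM in HFDmetf, from 13.5 through 21.3 to 29.8 in CDmetf, from 13.8 through 22.6 to 24.2 in CD and from 14.5 through 18.5 to 21.4 in HFD. Stat2, its partner, ran from 21.2 through 27.2 to 34.6 CPM in HFDmetf, from 27.2 through 37.6 to 46.5 in CDmetf, from 16.5 through 28.3 to 54.6 in CD and from 23.4 through 35.9 to 43.7 in HFD. Usp18, which removes ISG15 and dampens receptor signalling, ran from 0.605 through 2.56 to 3.30 CPM in HFDmetf, from 1.96 through 3.07 to 4.77 in CDmetf, from 1.98 through 2.79 to 4.58 in CD and from 0.979 through 2.41 to 4.13 in HFD. For Irf9 and Stat2 the unadjusted p in HFDmetf against CDmetf was 0.0349 and 0.0312, and neither passed adjustment.

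**Figure D3:**
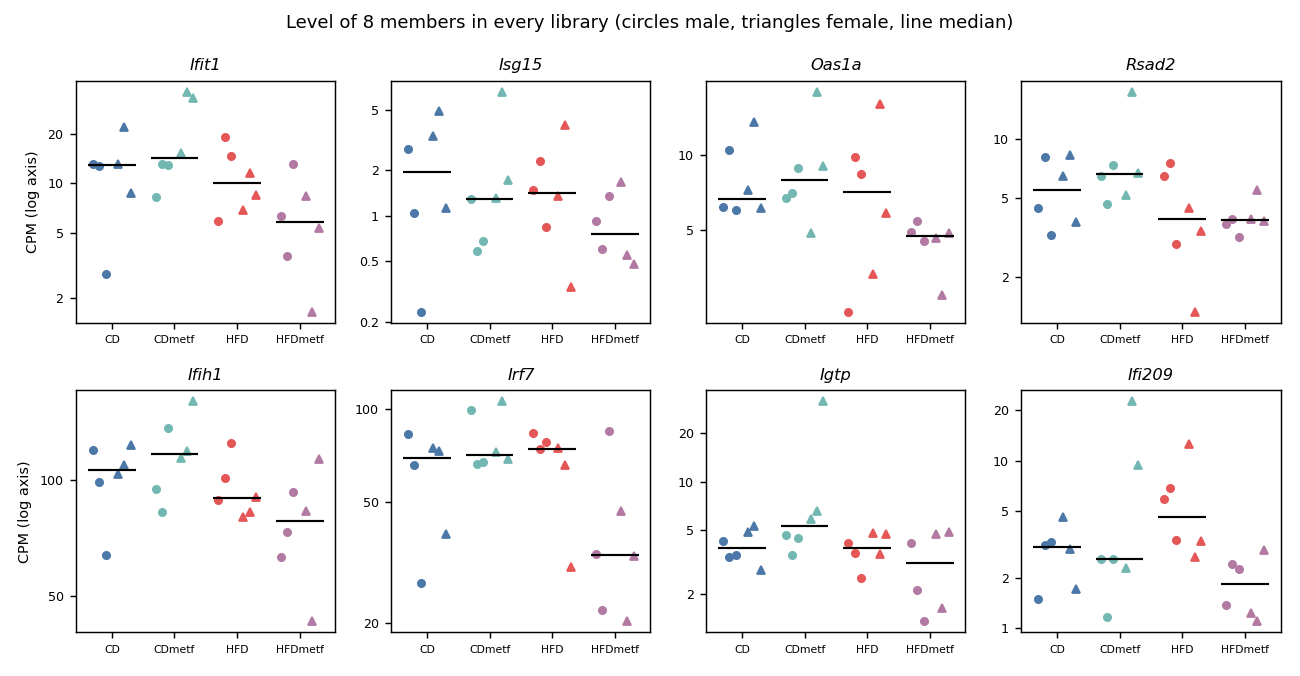
Levels of 8 members in every library (vertical axis, CPM on a log scale) are shown by group, with circles for males, triangles for females and a line at the group median. The HFDmetf medians are the lowest of the 4 groups for each of these 8 genes, at 5.82 CPM for Ifit1 and 33.5 CPM for Irf7, and CDmetf F3 stands alone for Igtp at 31.4 CPM.

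As a group, the GTPases were not lower in HFDmetf than in CD or HFD libraries. Their sub-score, the mean z-score over the 6 GTPases, ran from -0.57 through -0.17 to 0.40 in HFDmetf, from -0.57 through -0.38 to 0.82 in CD and from -0.82 through -0.27 to 0.60 in HFD. The range in CDmetf was -0.59 through 0.25 to 2.86, with CDmetf F3 at the top and the next library at 0.56. Igtp, a GTPase of the immunity-related family on chromosome 11, ran from 1.36 through 3.13 to 4.83 CPM in HFDmetf, from 3.52 through 5.27 to 31.4 in CDmetf, from 2.82 through 3.88 to 5.28 in CD and from 2.52 through 3.86 to 4.77 in HFD. CDmetf F3 held the value of 31.4 CPM and the next CDmetf library held 6.56. The log2 fold change of Igtp in HFDmetf against CDmetf was -1.38 (SE 0.41, unadjusted p = 0.00271, adjusted p = 0.561), lower in 6 of 6 pairs, and -0.61 without CDmetf F3.

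Irgm1, which directs membranes to autophagy, ran from 18.4 through 22.5 to 27.5 CPM in HFDmetf, from 17.9 through 25.3 to 58.8 in CDmetf, from 18.02 through 18.4 to 27.4 in CD and from 17.98 through 21.1 to 31.5 in HFD. Gbp2, a guanylate-binding protein that attacks the vacuoles of microbes, ran from 12.5 through 16.2 to 17.2 CPM in HFDmetf, from 11.4 through 16.4 to 36.02 in CDmetf, from 10.7 through 12.5 to 20.8 in CD and from 9.77 through 13.2 to 16.4 in HFD. Gbp7, of the same family, ran from 7.56 through 9.78 to 11.6 CPM in HFDmetf, from 5.18 through 10.0 to 25.7 in CDmetf, from 7.84 through 8.65 to 13.9 in CD and from 2.66 through 8.65 to 11.9 in HFD. In each of these the top CDmetf library was CDmetf F3, and 10.0% of the windows of Gbp7 also occur in other genes.

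Of the other induced genes, Ifi209, a DNA-binding member of the interferon-inducible p200 family, had the largest difference of all members. It ran from 1.10 through 1.83 to 2.95 CPM in HFDmetf, from 1.17 through 2.59 to 22.6 in CDmetf, from 1.49 through 3.05 to 4.599 in CD and from 2.66 through 4.63 to 12.5 in HFD. CDmetf F2 gave the value of 22.6 CPM. HFDmetf F2 gave the value of 1.10 CPM, under the 1.65 CPM at which 3 counts stood in that library. The log2 fold change in HFDmetf against CDmetf was -1.56 (SE 0.56, unadjusted p = 0.0112, adjusted p = 0.623), and 16.9% of its windows also occur in Ifi214. With the B-cell marker score as a covariate the log2 fold change of Ifi209 was -0.28 (SE 0.38, unadjusted p = 0.468, adjusted p = 0.900). Ifi27l2a, a small membrane protein, ran the other way, from 2.27 through 5.38 to 12.5 CPM in HFDmetf, 2.94 through 4.93 to 8.50 in CDmetf, 1.07 through 3.62 to 5.42 in CD and 1.77 through 3.80 to 6.31 in HFD, with wide overlap. Rtp4, a chaperone of receptor transport, had a log2 fold change of -1.003 against CDmetf.

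Metformin under the high-fat diet gave differences in the same direction for most members but smaller ones. In HFDmetf against HFD, 25 of 33 members were lower and 8 higher, with a median log2 fold change of -0.29 against -0.01 over all genes. At an unadjusted p under 0.05, 3 members were lower and 0 higher, against 3.78% and 3.09% of all genes. These were Ifi209 at -1.62 (SE 0.57, adjusted p = 0.620, lower in 6 of 6 pairs), Irf7 at -0.72 (SE 0.31) and Oasl2 at -0.84 (SE 0.38), and no member passed the test, with 0% of all genes passing. The next smallest p belonged to Ddx58, Oasl1 and Parp14, with log2 fold changes of -0.33, -0.60 and -0.45. All 4 sensors and all 4 regulators tested had a lower fitted level, and 4 of the 6 GTPases a higher one. The count of 3 became 1 without the 3 doubted libraries, of which HFD M2 and HFD F2 are in this comparison, and 0 with the B-cell marker score as a covariate. That covariate took Ifi209 to -0.61 (SE 0.36) and the median of the 33 members to -0.09, and the median was -0.13 with limma-voom and -0.19 without the 3 doubted libraries, where Parp14 was also at -0.19. Without HFD M3 Oasl2 was at -0.51, and without HFDmetf M3 Irf7 was at -1.09.

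Metformin under the control diet gave mostly higher fitted levels. In CDmetf against CD, 28 of 33 members were higher and 5 lower, with a median log2 fold change of 0.28 against -0.02 over all genes. At an unadjusted p under 0.05, 3 members were higher, against 2.33% of all genes, and 0 lower, against 2.67%, and 0% of all genes passed adjustment. The 3 were GTPases, Irgm1 at 0.51 (SE 0.17, adjusted p = 0.963, higher in 5 of 6 pairs), Igtp at 1.09 (SE 0.40, higher in 6 of 6 pairs) and Ifi47 at 0.77 (SE 0.30, higher in 4 of 6 pairs). The next were Gbp2 at 0.41, Ifi209 at 1.04 and Rsad2 at 0.53. Without CDmetf F3 the count of 3 became 0, with Irgm1 at 0.29, Igtp at 0.38 and Ifi47 at 0.42, and the median of the members became 0.13. Without CDmetf F2 the median was 0.16 and Ifi209 was at 0.42. With the B-cell marker score as a covariate the median was 0.09, Rsad2 was at 0.19 and Ifi209 at -0.07. The median log2 difference of the members between pairs was -0.23 within replicate number 1, 0.13 within number 2 and 0.74 within number 3, so the direction was not shared by the 3 numbers.

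The high-fat diet alone gave small differences with no shared direction. In HFD against CD, 19 of 33 members were lower and 14 higher, with a median log2 fold change of -0.07 against 0.01 over all genes. At an unadjusted p under 0.05, 1 was lower (Ifit3b, -0.74, SE 0.32) and 1 higher (Ifi47, 0.75, SE 0.30), against 1.93% and 2.82% of all genes, and 0% of all genes passed adjustment (smallest adjusted p among members 0.995). The next smallest p belonged to Ifi209 at 1.10, Rtp4 at -0.56, Gbp3 at -0.34 and Ifit3 at -0.43, and Ifi209 was at 0.26 with the B-cell marker score as a covariate. The median of the members lay between -0.20 and 0.03 as each animal was left out, and it was above 0 without CD M1, CD F2 or HFD F3. Without the 3 doubted libraries it was -0.14, Gbp3 was at -0.12 and Ifit3 at -0.77. Within replicate number 1 the median log2 difference of the members was -0.15 and within number 3 it was 0.24.

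The diet by metformin interaction sets the diet difference with metformin against the diet difference without it. Here 31 of 33 members had a negative term, with a median of -0.45 on the log2 scale against 0.01 over all genes. At an unadjusted p under 0.05, 7 members were lower and 0 higher, against 3.01% and 2.75% of all genes, and no member passed adjustment, with 0% of all genes passing (smallest adjusted p among members 0.722). The 7 were Ifi209 at -2.66 (SE 0.77, unadjusted p = 0.00242), Ifi47 at -1.295 (SE 0.42), Irf7 at -1.16 (SE 0.43), Oasl1 at -1.08 (SE 0.44), Ifit1bl1 at -1.14 (SE 0.49), Igtp at -1.31 (SE 0.58) and Ifit1 at -1.33 (SE 0.63). The count was 2 without the 3 doubted libraries and 1 with the B-cell marker score as a covariate, with which Ifi209 was at -0.54 (SE 0.55), Igtp at -0.66 and the median of the members at -0.24. Without CDmetf F3 Igtp was at -0.60. The count was 4 without CDmetf F3 and 11 without CDmetf M2. The 4 comparisons share groups, so their values stand side by side and are not independent of each other.

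**Figure D4:**
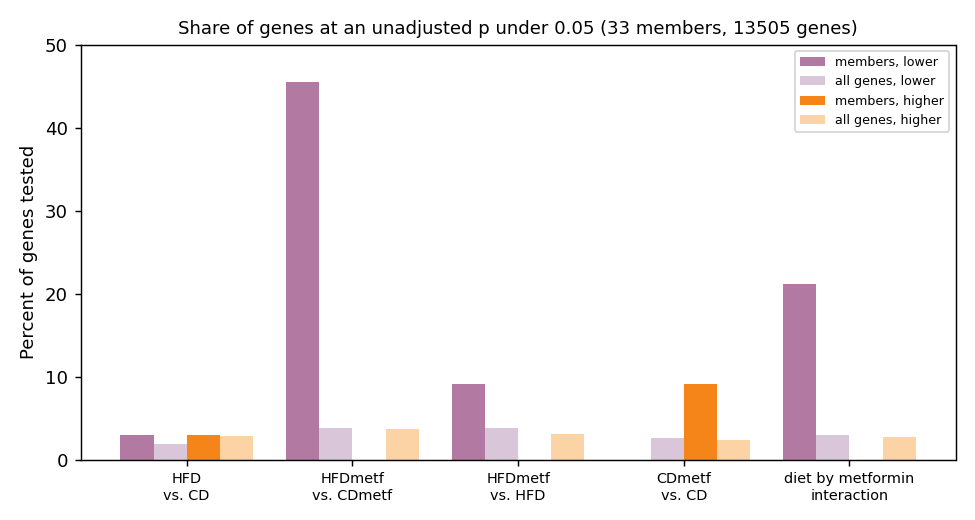
Bars give the percent of genes at an unadjusted p under 0.05, lower or higher, among the 33 tested members and among all 13505 genes, for the 4 comparisons and the interaction. The members' bar for lower levels in HFDmetf against CDmetf stands for 15 of 33 members, beside 3.85% of all genes.

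The median of the members in HFDmetf against CDmetf was below 0 within each replicate number and each sex, though small in number 1 for some roles. The median log2 difference of the 33 members was -0.26 within number 1, -0.71 within number 2 and -0.73 within number 3. Over all genes it was 0.03, -0.005 and -0.007. The sub-score of the antiviral effectors differed by a mean of -0.04 within number 1, -1.64 within number 2 and -1.15 within number 3. That of the GTPases differed by -0.09, -0.22 and -1.795. Of the 33 members, 23, 27 and 32 were lower within numbers 1, 2 and 3. In males the median was -0.31 with 26 members lower, and in females it was -0.67 with 32 lower. The score itself was lower in HFDmetf in 6 of 6 pairs of the same sex and number, with differences from -1.99 to -0.16 in mean z-score. The pairs that hold CDmetf F2 and CDmetf F3 gave -1.99 and -1.62.

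Libraries differed widely by replicate number over the transcriptome, and the members less so. The labels give this number without saying whether it is the block of the experiment. Of all genes, 16.8% differed between the 3 numbers at an adjusted p under 0.05 and 37.3% at an unadjusted one, against 1 and 5 of the 33 members. The member called was Oas1a (adjusted p = 0.0296), with medians of 4.91, 10.1 and 6.09 CPM in numbers 1, 2 and 3. Irgm1 was next (adjusted p = 0.0532), with medians of 18.9, 23.8 and 27.0 CPM. Between males and females 0 of 33 members passed adjustment, against 0.0074% of all genes, and at an unadjusted p under 0.05 there were 6 members lower in males and 0 higher, against 3.27% and 3.97% of all genes. Of these 6, Igtp had a log2 difference of -0.73 (SE 0.29; -0.40 without CDmetf F3) and Ddx58 of -0.29 (SE 0.12), with Ifit3b, Ifi47, Ifi209 and Irgm1 the others. The sex labels of HFD M2 and HFD F2 go against their transcripts, and without the 3 doubted libraries the count was 3.

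The members moved together only in part from animal to animal. After group means were removed, the median Pearson r over the 528 pairs of tested members was 0.24 across 24 libraries, and the range was -0.61 to 0.82. GTPases correlated more with each other (median r 0.52 over 15 pairs) than with the regulators (median r -0.11 over 24 pairs). The closest pairs were Oasl1 with Irf7 at 0.82, Ddx58 with Parp14 at 0.81 and Ifit1 with Oas3 at 0.80. Against the score of the other members, 19 of the 37 had r above 0.5, and of the genes that are no members 0.935% did. Oasl2 came first at 0.76, while Ifit2 at -0.01 and Ifi27l2a at -0.09 did not follow the rest. These are descriptions over 24 libraries that differ in depth, from 1829690 to 40606442 reads, and that share replicate numbers.

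The members varied more between animals than the typical gene. The biological coefficient of variation, which edgeR estimates after group, sex and number, had a median of 0.303 over the 33 tested members and 0.217 over all genes. It was 0.597 for Ifi209, 0.528 for Oas3 and 0.503 for Ifit1, and it was lowest for Irf9 at 0.183. Of the 33 members, 17 lay above the value that genes of like abundance follow, against 27.2% of all genes.

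The genes closest to the score that are not members were taken as the 10 with the highest r over 24 libraries. Among them were Herc6 (r = 0.76), Mfsd4a (0.73), Ddx60 (0.72), Gm5431 (0.72), Dtx3l (0.69), Samd9l (0.69), H2-T23 (0.68), Psmb8 (0.68) and Cd28 (0.68). Of these, Herc6, Ddx60, Dtx3l and Psmb8 also stood on the list of pathway genes. Ddx60, a helicase related to the RNA sensors, ran from 6.60 through 13.7 to 17.7 CPM in HFDmetf and from 9.37 through 27.4 to 40.9 in CDmetf, with a log2 fold change of -1.05 (SE 0.32, adjusted p = 0.561).

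Upstream of the members, the interferon genes that were looked up were almost without reads. Ifna1, Ifna2, Ifna4, Ifnb1, Ifnl2 and Ifnl3 had 0 reads in all 24 libraries, and Ifng had 4 reads in 4 libraries. Other interferon genes were not looked up. Reads that fit several genes equally well were not counted, so 0 reads does not show that an interferon was absent. The receptors were present, at a median of 63.1 CPM for Ifnar1, 134 for Ifngr1 and 23.7 for Ifnlr1, the receptor chain of type III interferon. Of the 53 pathway genes listed, 43 were tested and 0 passed adjustment in any of the 4 comparisons or the interaction. In HFDmetf against CDmetf, 37 of the 43 were lower and 6 higher, with a median of -0.25, and 7 were lower and 0 higher at an unadjusted p under 0.05, against 3.85% and 3.7% of all genes. Among these 7 were Ddx60, Jak1 at -0.28 (SE 0.12), Trim25 at -0.43 (SE 0.17), Dtx3l at -0.45 (SE 0.17) and Eif2ak2 at -0.30 (SE 0.14).

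Within each of the remaining comparisons, most of the pathway genes also shared a direction. In HFDmetf against HFD, 36 of the 43 were lower, with a median log2 fold change of -0.24, and 4 were lower and 0 higher at an unadjusted p under 0.05, against 3.78% and 3.09% of all genes. These were Psmb8, a subunit of the immunoproteasome, at -0.81 (SE 0.26), Socs3, a brake on cytokine signalling, at -0.9996 (SE 0.38), Il10rb, a chain of the type III receptor, at -0.49 (SE 0.20), and Sp100 at -0.55 (SE 0.26). In CDmetf against CD, 35 of the 43 were higher, with a median of 0.13. At an unadjusted p under 0.05, 3 were higher, Ifitm1 and Ifitm3 among them, and 1, Socs3, was lower, against 2.33% and 2.67% of all genes. In HFD against CD, 36 of the 43 were higher, with a median of 0.14, and at that level 1, Tlr7, was higher and 0 lower, against 2.82% and 1.93% of all genes. In the interaction, 39 of the 43 were negative, with a median of -0.38, and 6 were lower and 0 higher at that level, against 3.01% and 2.75% of all genes. Among the 6 was Tlr9 at -1.85 (SE 0.68), a DNA sensor of B cells and plasmacytoid dendritic cells.

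Lymphocyte markers moved with the score. All 10 B-cell markers had 3 or more counts in at least 6 libraries, and their summed level ran from 9.05 to 84.7 CPM in CD, from 15.5 to 426 in CDmetf, from 15.2 to 357 in HFD and from 10.1 to 31.9 in HFDmetf. Blk was at 0 in 2 libraries and Fcrla in 1. CDmetf F2 had the highest summed level. The median was 24.6 CPM in HFDmetf, 21.3 in CD, 34.1 in HFD and 74.3 in CDmetf. The B-cell medians of HFDmetf and CD lay close together, though CD reached 84.7 CPM and HFDmetf 31.9. The member scores of HFDmetf and CD had medians of -0.53 and 0.12. All 9 T-cell markers met the same count, with a summed level of 11.8 to 34.6 CPM in CD, 11.7 to 92.7 in CDmetf, 16.1 to 54.5 in HFD and 13.3 to 32.4 in HFDmetf, and Cd3d was at 0 in 8 libraries. Across 24 libraries and after removal of group means, the score of the members and the B-cell score had r = 0.45 and rho = 0.42, and r = 0.37 without HFD F1 and CDmetf F2, the pair farthest from the median. For the T-cell score r was 0.46 and rho 0.44, and r was 0.18 without CDmetf F2 and CDmetf M2.

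The GTPases did not follow these markers, with r = 0.01 against the B-cell score. HFD F1 had a B-cell score of 2.00 and a member score of -0.04. HFD M2, a doubted library, had a B-cell score of 1.52 and the highest member score of the HFD group, 0.32. With the B-cell score as a covariate, Ifit3b, Ifih1, Ifit1, Irf7, Ifit1bl1, Oas1a, Oasl2 and Igtp were at an unadjusted p under 0.05 in HFDmetf against CDmetf, and the median of the 33 members was -0.32. Macrophage markers, 8 of 8 detected, had higher medians in both metformin groups. Their summed level was 205 to 399 CPM (median 277) in HFDmetf and 198 to 335 (median 253) in CDmetf. It was 144 to 247 (median 159) in CD and 152 to 257 (median 222) in HFD. Against the macrophage score, the member score had r = -0.22, and -0.17 without HFDmetf F3 and HFDmetf M2. The epithelial summed level ran from 5741 to 17328 CPM in HFDmetf and from 10051 to 16960.5 in CDmetf, with HFDmetf F2 lowest of all 24 libraries. Against the epithelial score, the member score had r = 0.24, and 0.08 without HFDmetf F2 and CD M3. The part of these cell types in the members' differences, beyond the B-cell covariate, was not tested.

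**Figure D5:**
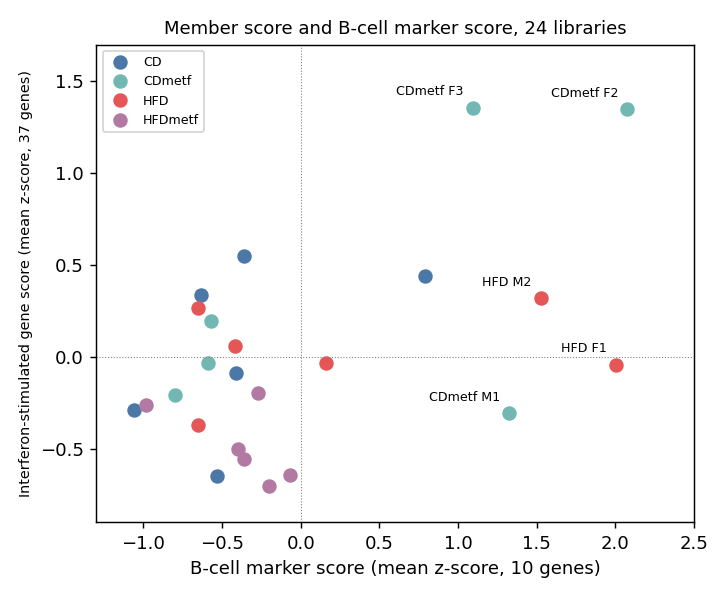
The member score (vertical axis, mean z-score of 37 genes) is plotted against the B-cell marker score (horizontal axis, mean z-score of 10 genes) for 24 libraries coloured by group. CDmetf F2 and CDmetf F3 are high on both, HFD F1 and HFD M2 are high on the B-cell score with member scores of -0.04 and 0.32, and all 6 HFDmetf libraries lie below 0 on both.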

How the data were processed

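Libraries kept the strand of the RNA. Per the study's methods and the submitters' processing notes, the authors trimmed reads with Trimmomatic 0.39, mapped them to GRCm38 with STAR 2.5.3a and deposited raw read counts per gene; which annotation release and which strand were used is not given in the sources used here, so reads of overlapping genes on opposite strands may not be told apart. The 4 summary entries (unmapped, multimapping, unassigned and ambiguous reads) held 48.0% of reads and were left out, and reads that fit several genes equally well were not counted, which lowers near-identical members. Of 55536 gene identifiers, 55450 matched a symbol.

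From the deposited counts, genes were filtered with filterByExpr by group (13505 kept), scaled by the trimmed mean of M-values and tested with edgeR 4.0.16 (R 4.3.3) by the quasi-likelihood test in a model of the 4 groups that also held the sex and the replicate number (24 libraries, residual degrees of freedom 17), with Benjamini-Hochberg adjustment over all genes at 0.05. edgeR was used in place of the study's limma-voom, which also takes counts and was fitted as an alternative. Scores used log2 CPM with a prior count of 1. Same-numbered libraries of different groups had a mean correlation of deviations of 0.13, above 0.1 in 38 of 72 pairs, against -0.06 for different numbers; the number was kept because the study's model holds the sequencing block and its design has 3 blocks, though the labels do not say that the number is the block. Alternatives were limma-voom 3.58.1, DESeq2 1.42.0, other scaling and filters, dropped terms, a B-cell covariate and left-out libraries. The tests were also run on simulated counts that held no effect of sex or replicate number. The outcome is not reported here.

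Levels are given for 22 members picked by role and for Ifit1bl1, chosen after its values were seen, and fold changes for the 6 members with the smallest unadjusted p in each comparison; the remaining members at an unadjusted p under 0.05, and those named for a low or opposite value, were named after their values were seen. The members, roles and marker and pathway lists were chosen with earlier results of these data known. Each library is 1 animal, and shallow libraries give low members few counts. Some genes of the pathway list are not reported here by name.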

Additional observations from a re-analysis of the deposited data

Results flagged for a closer look

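Among 112 sets of 6 libraries (24 for scores and 88 for single genes), each was tested for a stray value. In 16 (2 scores and 14 genes), a library's gap to the next was past Dixon's critical share of the group's range. For normally distributed values chance gives about 1 in 20. The gene values were CPM without a log, some of them low, so that rate need not hold, and the genes are not independent. CDmetf F2 was far above its group for Isg15 at 6.56 CPM (next 1.72), Oas1a at 17.9 CPM (next 9.07), Oas2 at 4.47 CPM (next 1.33) and Rsad2 at 17.3 CPM (next 7.39); the same library had the highest B-cell score of all, 2.08, and T-cell score, 1.97. CDmetf F3 was far above its group for the GTPase score at 2.86 (next 0.56), Gbp2 at 36.02 CPM (next 19.5), Igtp at 31.4 CPM (next 6.56) and Irgm1 at 58.8 CPM (next 31.6). CD F2 was high for the GTPase score at 0.82 and for Gbp7 at 13.9 CPM.

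Mx1 was high in CD M1 at 10.4 CPM and Oas2 in HFD M3 at 3.79 CPM. Irf7 was low in HFD F3 at 30.6 CPM (next 66.0), and Ifit3 was low in CD M3 at 3.26 CPM, the library dominated by a few genes. HFDmetf F2, the shallowest library, was low for Oas1a at 2.75 CPM and high for Rsad2 at 5.50 CPM.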

How the results depend on the processing

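No member was called in the 4 comparisons, the interaction or the sex difference under any alternative, and over all genes DESeq2 called 12 in HFD against CD, 4 in CDmetf against CD, 4 in the interaction and 22 for sex, where 15 were called without a filter, 8 without the 3 doubted libraries, 8 when HFDmetf F2 was dropped as well (an alternative chosen after seeing the data) and 0 to 8 as each animal was left out. The median log2 fold change of the members moved by less than 0.29 in every alternative. That is the standard deviation, within groups, of the members' mean log2 CPM in single animals. It is a wide yardstick for a difference between means of 6 animals, so moves below it are not shown to be small. With the B-cell covariate the median changed by over 1.5 times in all 4 comparisons and the interaction. It went to -0.11 in HFD against CD, -0.32 in HFDmetf against CDmetf and -0.09 in HFDmetf against HFD. The median went to 0.09 in CDmetf against CD and -0.24 in the interaction. In CDmetf against CD it lay between 0.13, without CDmetf F3, and 0.42, without CDmetf F1, and was 0.16 without CDmetf F2. Without the replicate block, HFDmetf against CDmetf gave 15 members lower at an unadjusted p under 0.05 and a median of -0.51, and no call of a member in a comparison changed; the B-cell covariate gave 8. For HFDmetf against HFD the count of 3 lower became 5 with limma-voom, 1 without the 3 doubted libraries with or without HFDmetf F2, 0 with the B-cell covariate, and 1 to 6 as each animal was left out: 1 without HFD M3, HFDmetf M2 or HFDmetf F2, and 6 without HFD F3 or HFDmetf M3. For CDmetf against CD the count of 3 higher became 9 with limma-voom, 6 without a filter, 1 with the B-cell covariate, and 0 to 7 as each animal was left out: 0 without CDmetf F3, 7 without CDmetf F1, and 5 without CDmetf M1, CDmetf M2 or HFDmetf M3. For the interaction the count of 7 lower became 12 without a filter, 2 without the 3 doubted libraries with or without HFDmetf F2, 1 with the B-cell covariate, and 4 to 11 as each animal was left out. Replicate number called 4137 genes with limma-voom, 4036 with DESeq2, 4007 without the 3 doubted libraries, 911 with the B-cell covariate and 1213 to 4006 as each animal was left out; of members it called 3, 4, 3 and 0 in those 4, 2 without a filter, 4 without the 3 doubted libraries and HFDmetf F2, and 0 to 4 as each animal was left out. Of 36 single fold changes, that of Ifi209 in CDmetf against CD changed sign, to -0.067 with the B-cell covariate. The cause of these moves was not tested. Depth limits Isg15, Ifi44, Oas2 and Mx2, which did not pass the filter on low counts with all 24 libraries.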
